A study of Drosophila melanogaster and Drosophila simulans and Drosophila erecta with 10 samples.

Results

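Predicted targets of miR-983-3p alone were followed in testes of flies lacking miR-983. MiR-983-3p is the microRNA made from the 3′ arm of the miR-983 hairpin, and miR-983-5p comes from its other arm. A gene was taken as a member where the authors' deposited table has Yes for a TargetScan site of miR-983-3p and No for miR-983-5p by both TargetScan and PITA, a pair of site prediction programs. This gave 260 of 7326 listed genes in Drosophila melanogaster and 180 of 6744 in Drosophila simulans. The rule itself uses no expression value, but it was set with earlier results of these data known.

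In each species 2 libraries from miR-983 knockout (KO) flies, which the labels call miR-983 mutant, were set against 2 from control flies. All RNA was total RNA from testes of 3- to 5-day-old adults kept at 25 °C. Both libraries of each genotype are biological replicates by the study's design text. The sources used here do not give how the allele was made, the stock behind the controls or the number of flies per library. Differences in stock or handling therefore cannot be told apart from those of genotype.

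A microRNA guides an Argonaute protein to messenger RNAs that pair with its seed, a short stretch near its 5′ end, usually in the 3′ untranslated region. GW182 then brings in deadenylating and decapping enzymes, and the bound messenger is less stable and less translated. The 2 arms of a hairpin have different seeds and therefore different predicted targets. MiR-983 is known as an evolutionarily young, X-linked microRNA of the melanogaster group that is expressed in testis. The comparison asks whether the messengers with predicted miR-983-3p sites differ in level when the microRNA is missing.

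The values are log2 expression as deposited, 1 per library. The quantity under the logarithm is not given, nor whether it is per length, so levels of different genes are compared here only by their rank in the table. Sequencing depth is unknown. No gene in the tables has a value of 1 or less, so lower genes were not analysed here. Each gene was tested with limma over the whole table of its species, and "called" means a Benjamini-Hochberg adjusted p under 0.05 over all genes of that table. The knockout itself could not be followed, since the D. melanogaster table has 0 entries under the symbols mir-983-1 and mir-983-2. Of 24 germline markers 21 were listed, while bam, vas and nos were not and could not be followed. The 21 had 0 calls (against 2.28% of all genes), at levels from low to high. The smallest p was that of mia, at 2.86 and 2.72 in KO and 2.35 and 2.34 in control libraries. Its log2 fold change of 0.45 ± 0.09 (SE) did not pass (limma adjusted p = 0.0537). ProtB was at 0.25 ± 0.08 (adjusted p = 0.182) and nht at -0.19 ± 0.08 (0.38). The median over the 21 was -0.018. Mst77F, a sperm chromatin gene, stood at 9.61 and 9.71 in KO and 9.53 and 9.62 in control libraries. The marker at the lowest level was comr, a regulator of spermatocyte transcription, at 1.60 and 1.30 in KO and 1.57 and 1.37 in control libraries. Of markers of other cells, 1 of 21 accessory gland genes, 4 of 13 fat body genes, 6 of 12 muscle genes and 3 of 9 somatic testis genes were listed. None of the 7 neural or 6 ejaculatory bulb and duct genes was listed (0 genes). The somatic markers tj, zfh1 and eya were not listed either. The 3 listed somatic genes were not called and differed in direction. MtnA was at 0.35 ± 0.07 (limma adjusted p = 0.0661), Rab11 at -0.14 ± 0.07 (0.518) and upd1 at -0.23 ± 0.15 (0.642). The 6 muscle genes were not called, with log2 fold changes from -0.10 to 0.14. The accessory gland gene, Acp95EF, stood at 6.34 in KO replicate 2, 4.42 in KO replicate 1 and 4.16 and 4.12 in the controls. Of the 4 listed fat body markers, read here in testis RNA, 2 were called higher in KO (against 1.05% of all genes). Tsf1 rose by 0.80 ± 0.11 (log2 fold change, SE, limma adjusted p = 0.0103) and NLaz by 0.62 ± 0.08 (adjusted p = 0.00771). Obp99a (0.02 ± 0.08, adjusted p = 0.953) and Obp44a (-0.00 ± 0.10, 0.995) were not called. The summed linear values of the 4 fat body genes were 907 and 1061 in KO and 918 and 968 in control libraries. These sums add genes on a scale that is not given. Obp44a, at 9.26 and 9.49 in KO and 9.33 and 9.42 in control libraries, weighs most in them. The part of these markers in the results on members was not tested. In whole testes, fewer cells of a type and less RNA per cell cannot be told apart.

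In D. melanogaster few of the predicted miR-983-3p-only targets changed, and their share was close to that of the whole table. The test called 5 of 260 members, or 1.92%, against 2.28% of all genes. Of these 2 rose (0.769%, against 1.05% of all genes) and 3 fell (1.15%, against 1.23%). CG2617 and CG9391 were higher in KO testes. RNaseX25, which encodes a ribonuclease of the T2 family, DCTN1-p150, which encodes the large subunit of the dynein activator dynactin, and CG14811 were lower. No member changed by 2-fold (0 members called at that size, against 0.437% of all genes).

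CG2617 had log2 values of 3.04 and 2.93 in KO libraries, against 2.12 and 2.12 in control libraries. Its KO libraries both lay above its controls, a 1.82-fold difference (log2 fold change 0.87 ± 0.09, SE; limma adjusted p = 0.00275). CG9391 stood at 4.88 and 5.03 in KO libraries and at 4.58 and 4.55 in controls, again without overlap. Its log2 fold change was 0.39 ± 0.07 (adjusted p = 0.0351), the smallest among the called members.

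RNaseX25 had values of 2.54 and 2.65 in KO libraries, against 3.44 and 3.43 in control libraries. The KO libraries were both lower, by 1.78-fold (log2 fold change -0.84 ± 0.08; limma adjusted p = 0.00241). DCTN1-p150 stood at 1.91 and 1.86 in KO libraries and at 2.54 and 2.51 in controls, a log2 fold change of -0.64 ± 0.09 (adjusted p = 0.0103). CG14811, at a low level, had 1.34 and 1.31 in KO libraries and 1.83 and 1.77 in controls (-0.48 ± 0.09, adjusted p = 0.0485). The authors' deposited table marks 4 of these 5 genes as past p 0.05 by DESeq2, the exception being CG14811, and marks no other member (1.54% of members, against 1.65% of all genes).

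**Figure D1:**
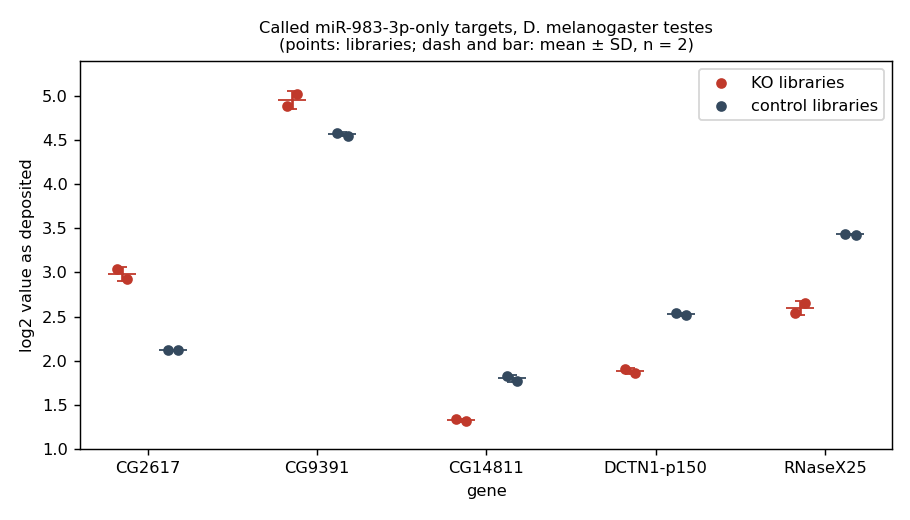
Log2 values as deposited (vertical axis) of the 5 called miR-983-3p-only targets in D. melanogaster testes, with KO libraries left of control libraries for each gene. Points are single libraries, and the dash and bar give the mean ± SD of 2 libraries. CG2617 and CG9391 lie higher in KO and CG14811, DCTN1-p150 and RNaseX25 lower, with no overlap between genotypes in any of the 5.

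CG2617, RNaseX25 and DCTN1-p150 stayed called without any 1 of the 4 libraries. CG9391 lost its call without KO replicate 2 (adjusted p = 0.107), and CG14811 lost its call without control replicate 1 (0.0663), KO replicate 1 (0.106) or KO replicate 2 (0.125) and after median centring of the libraries (0.0535). By gene order in assembly Release 6 plus ISO1 MT, RNaseX25 overlaps CG8042, CG2617 overlaps Hr38, and CG14811 overlaps prage. Strand handling in the counting is not stated, so these 3 values are uncertain, and 21 of the 40 genes named by rule overlap another gene. CG8042 itself stood at a log2 fold change of 0.01 ± 0.07 (adjusted p = 0.964). Without control replicate 2 the falls among members numbered 5 in place of 3 (1.92%, against 1.75% of all genes). Without KO replicate 2 the rises numbered 1 in place of 2 (0.385%, against 0.642% of all genes). Counts over all genes moved too, with 128 falls in place of 90 and 47 rises in place of 77.

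Across the 260 members the log2 fold change was small and slightly below that of all genes. Its median was -0.023, against -0.011 over all genes. The quartiles of members were -0.083 and 0.042, against -0.089 and 0.060 for all genes. A log2 fold change above 0 was found in 103 members (39.6%), against 45.5% of all genes. Both KO libraries lay above both controls in 31 members (11.9%, against 17.9% of all genes) and below both controls in 63 (24.2%, against 24.3%). Unadjusted, 17 members had a limma p under 0.05 (6.54%, against 12.7% of all genes). The spread between replicates was like that of the table, with a median difference of 0.0998 between KO replicates and 0.0791 between controls among members. Without control replicate 1 the median of members was 0.006, so its sign rests on that library.

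**Figure D2:**
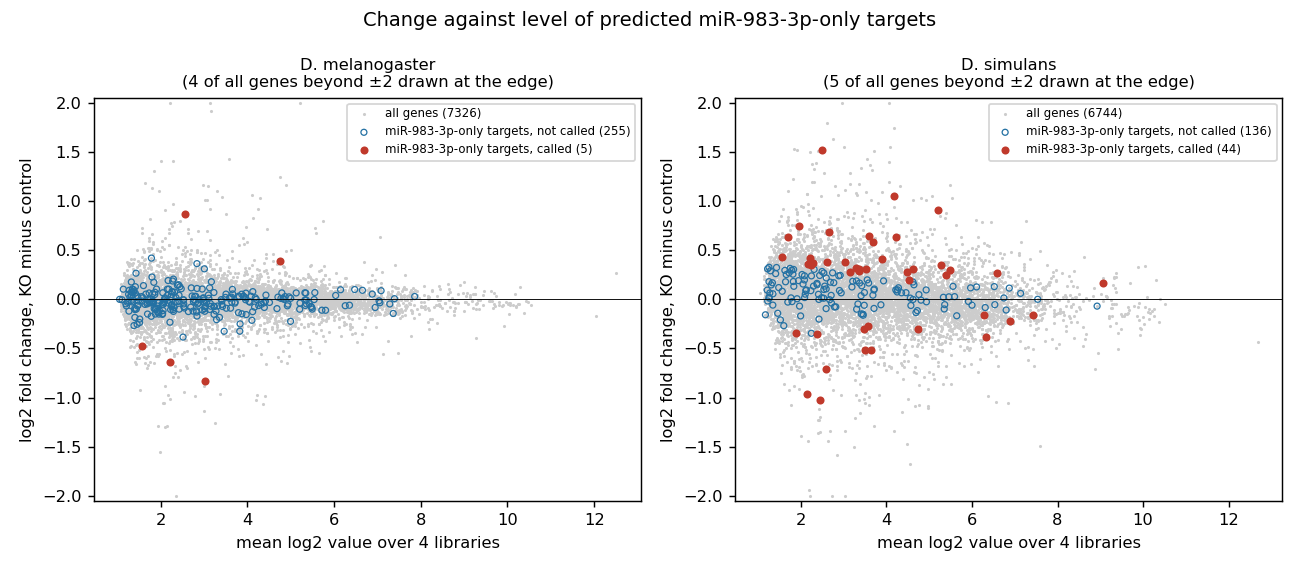
Log2 fold change, KO minus control, against the mean log2 value over the 4 libraries, for D. melanogaster (left) and D. simulans (right). Grey points are all genes, open circles members that were not called and filled circles called members. In D. melanogaster 255 of 260 members lie between -0.38 and 0.42 and were not called, while in D. simulans 44 of 180 were called, 30 above 0 and 14 below.

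By what their genes do, 143 of the 260 members fell into 10 role classes, assigned from symbols alone. The other 117 have no role here: 5 have no symbol in the tables used, and many of the rest carry a CG number only. All 255 members with a symbol are protein-coding, against 90.3% of the listed genes with a known class. Target sites are predicted in messengers, so the membership rule may fix this share. Role classes had 0 rises, and falls were found in metabolism and modification enzymes (RNaseX25, 1 of 18) and in cytoskeleton and motors (DCTN1-p150, 1 of 8). Since 2.28% of all genes were called, 0 calls in a class of 8 to 24 genes say little about it. Counts of signs by class stand beside 39.6% of members and 45.5% of all genes above 0. Class medians ran from -0.07 in channels and transporters to 0.01 in transcription and chromatin.

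Of the 8 cytoskeleton and motor genes, DCTN1-p150 fell and the others did not pass. Dhc64C, the heavy chain of cytoplasmic dynein, which dynactin activates, had log2 values of 1.32 and 1.47 in KO and 1.70 and 1.56 in control libraries. The groups did not overlap, and its log2 fold change of -0.24 ± 0.11 did not pass (limma adjusted p = 0.417). Its reads may be shared with CG18808, which it overlaps. Khc, the heavy chain of conventional kinesin, a plus-end motor, was at -0.12 ± 0.10 (adjusted p = 0.701), and nudE, a dynein regulator, at -0.00 ± 0.07 (adjusted p = 0.989). The actin nucleator gene spir was at 0.19 ± 0.10 (adjusted p = 0.519).

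Among 18 genes of metabolism and modification enzymes, 13 had a negative log2 fold change. Next to RNaseX25 the smallest p belonged to Pmvk, the phosphomevalonate kinase of isoprenoid synthesis. Pmvk stood at 3.18 and 3.14 in KO libraries and at 2.84 and 2.85 in controls. The groups lay apart, yet the log2 fold change of 0.31 ± 0.08 did not pass (limma adjusted p = 0.113). Hs2st, a sulfotransferase of heparan sulfate, was at 0.14 ± 0.10 (adjusted p = 0.659), and GstS1, a glutathione S-transferase, at -0.02 ± 0.07 (adjusted p = 0.964).

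Genes of RNA processing and translation numbered 19, with 12 negative and 7 positive log2 fold changes and 0 calls. La, which binds the ends of new RNA polymerase III transcripts, had 3.74 and 3.67 in KO libraries, against 3.98 and 3.93 in controls. Its libraries did not overlap, at -0.25 ± 0.07 (limma adjusted p = 0.15). SC35, a splicing factor, was at -0.15 ± 0.10 (adjusted p = 0.629). The RNA-binding translational repressor bru1 was at 0.01 ± 0.09, and the ribosomal protein genes RpL9 and RpL24 at -0.05 ± 0.06 and -0.10 ± 0.08, with adjusted p from 0.701 to 0.989.

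Signalling genes (22) and genes of transcription and chromatin (24) held 0 calls, against 2.28% of all genes. The BMP ligand gene gbb, which acts in upkeep of testis germline stem cells, had 2.28 and 2.45 in KO libraries and 2.29 and 2.07 in controls, and its groups overlapped (0.19 ± 0.11, limma adjusted p = 0.586). Cerk, the ceramide kinase gene, was at -0.17 ± 0.09 (adjusted p = 0.522). The kinase gene Akt was at -0.08 ± 0.09 and yki, the effector of the Hippo pathway, at 0.01 ± 0.08. In chromatin, akirin was at -0.15 ± 0.08 (adjusted p = 0.538) and acj6, a POU-domain factor gene that overlaps Pp1-13C, at -0.13 ± 0.09 (adjusted p = 0.641).

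Cell cycle and DNA genes (8) held the largest positive value within the role classes. Mcm10, a replication factor gene, had 2.16 and 1.83 in KO libraries and 1.69 and 1.46 in controls. The groups lay apart, but replicates differed widely, and 0.42 ± 0.14 did not pass (limma adjusted p = 0.224); without control replicate 1 it passed, at 0.54 (adjusted p = 0.0123). The meiotic regulator endos, whose product inhibits PP2A, was at 0.10 ± 0.06 (adjusted p = 0.615).

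The remaining classes had 0 calls. In chaperones, proteases and ubiquitin (15), the serpin gene Spn42Db was at -0.23 ± 0.10 (limma adjusted p = 0.376) and the neddylation factor gene SCCRO at -0.13 ± 0.07 (0.54). In mitochondria (10), Nubpl, an assembly factor gene of respiratory complex I, was at 0.23 ± 0.11 (adjusted p = 0.466) and slmo at -0.11 ± 0.06 (0.555). In traffic (10), the importin beta gene Fs(2)Ket was at 0.15 ± 0.11 (adjusted p = 0.698) and the nuclear pore gene Nup43 at -0.11 ± 0.10 (0.746). In channels and transporters (9), MFS16 was at -0.15 ± 0.10 (adjusted p = 0.652) and the zinc transporter gene ZnT49B at -0.12 ± 0.09 (0.659).

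**Figure D3:**
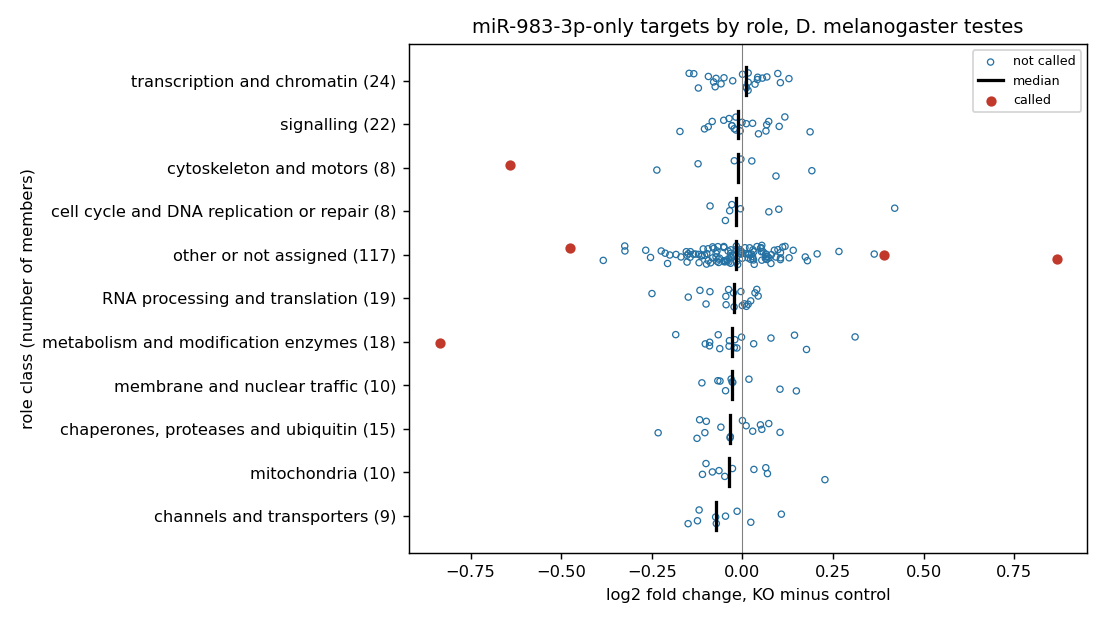
Log2 fold change, KO minus control (horizontal axis), of the 260 D. melanogaster members by role class, with the number of members in brackets. Open circles were not called, filled circles were called and black bars are class medians, which lie between -0.07 and 0.01.

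Among members of no assigned role with a mean log2 value of at least 2 in 1 genotype and no overlap between genotypes, the largest differences without a call were negative in CG42240 (-0.38 ± 0.10, limma adjusted p = 0.125), CG32485 (-0.32 ± 0.08, 0.107), CG10344 (-0.32 ± 0.08, 0.124) and CG33125 (-0.22 ± 0.07, 0.231). CG42240 passed without control replicate 2 (adjusted p = 0.0356) and CG10344 without control replicate 1 (0.0156). The positive ones were CG31460 (0.36 ± 0.10, adjusted p = 0.127), Arv1, of endoplasmic reticulum sterol balance (0.21 ± 0.10, 0.455), and CG17746 (0.18 ± 0.09, 0.493). CG31460 and Arv1 overlap antisense RNAs that stood at 0.33 ± 0.10 (asRNA:CR44291) and 0.24 ± 0.10 (asRNA:CR43877), so their reads cannot be told apart without strand.

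The 8 members listed highest were not called, with log2 fold changes from -0.14 to 0.09. CG14718 had 7.88 and 7.87 in KO libraries and 7.88 and 7.81 in controls. CG14995 (0.01 ± 0.07), CG1979 (-0.14 ± 0.06), CG14540 (-0.05 ± 0.07), CG31206 (0.09 ± 0.07), the Hsp70 family gene Hsc70-2 (-0.03 ± 0.06) and Mics1 (-0.08 ± 0.06) followed, with limma adjusted p from 0.407 to 0.984. At these levels the standard error was 0.06 to 0.07.

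Genes of the machinery through which microRNAs act held 0 calls, against 2.28% of all genes. With that share, 0 calls in so short a list say little about the pathway. The list for the microRNA and small interfering RNA pathways held 33 symbols, including synonyms such as CCR4 for twin. Those not measured include drosha and Dcr-1. The 26 measured genes had 0 rises and 0 falls. Their median log2 fold change was -0.005, against -0.011 over all genes. The smallest p was that of the decapping activator DCP1, at 2.10 and 1.96 in KO libraries and 2.41 and 2.37 in controls (-0.36 ± 0.09, limma adjusted p = 0.127). AGO1, the Argonaute of microRNAs, was at -0.02 ± 0.09 and gw, which encodes GW182, at 0.14 ± 0.10. The level of AGO1 was low, at 1.36 and 1.36 in KO and 1.39 and 1.38 in control libraries. One pathway gene is itself a member: twin, the Ccr4 deadenylase, had 4.31 and 4.06 in KO libraries and 4.25 and 4.09 in controls (0.02 ± 0.10, adjusted p = 0.973).

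In D. simulans the predicted miR-983-3p-only targets had a slightly higher median in KO testes than all genes, and a smaller share of them fell. Of 180 members 30 rose (16.7%, against 16.8% of all genes) and 14 fell (7.78%, against 14.2%). Called members together made up 24.4%, against 31.0% of all genes, and 38.3% had an unadjusted limma p under 0.05, against 42.7%. Of the called members 3 changed by at least 2-fold (1.67%, against 1.29% of all genes). The median log2 fold change was 0.096, against 0.028 over all genes, and 69.4% of members had a value above 0, against 55.4%. Both KO libraries lay above both controls in 89 members (49.4%, against 38.2% of all genes) and below in 33 (18.3%, against 30.3%). The authors' deposited table marks 32 members (17.8%) as past p 0.05 by DESeq2, against 17.9% of all genes, and 30 of the 32 are among the 44 called. The lean of miR-983-3p targets was already known when these members were chosen, so these shares are no independent support for it.

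The 30 rises ran from a log2 fold change of 0.16 to 1.52 with a median of 0.36, and the 14 falls from -1.02 to -0.16 with a median of -0.35. FBgn0184136 had log2 values of 3.29 and 3.20 in KO libraries, against 1.82 and 1.63 in control libraries. Its KO libraries were far above the controls, by 2.86-fold (1.52 ± 0.11, SE; limma adjusted p = 1.88e-06). FBgn0192573 stood at 4.64 and 4.78 in KO libraries and at 3.79 and 3.53 in controls (1.05 ± 0.09, adjusted p = 7.2e-06). FBgn0191029 had 1.83 and 2.04 in KO libraries, against 2.90 and 3.02 in controls, and was 2.03-fold lower (-1.02 ± 0.11, adjusted p = 4.62e-05). FBgn0182719 was at 1.56 and 1.78 in KO libraries and at 2.85 and 2.40 in controls (-0.96 ± 0.15, adjusted p = 0.000573). These 4 stayed called under every setting tried. They are given by identifier because 0 of the 180 members match a symbol in the tables used, so no role class could be set in this species.

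**Figure D4:**
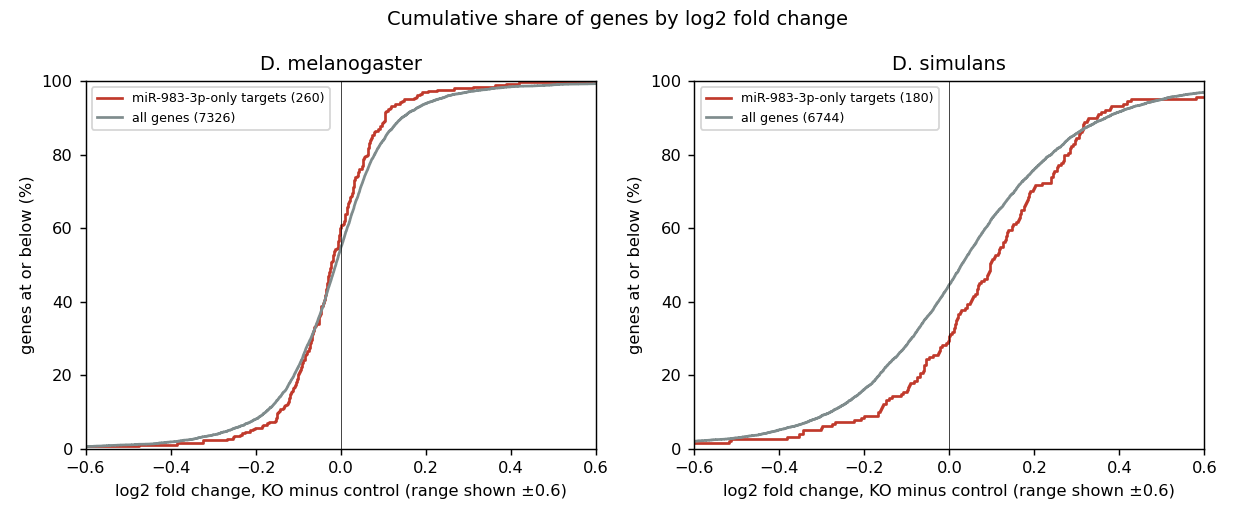
Cumulative percentage of genes (vertical axis) at or below a log2 fold change, KO minus control (horizontal axis), for miR-983-3p-only targets and all genes in D. melanogaster (left) and D. simulans (right). In D. simulans the curve of the members runs to the right of that of all genes around its middle, with medians of 0.096 and 0.028. In D. melanogaster the medians are -0.023 and -0.011.

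The counts in D. simulans depended on single libraries. Rises numbered 14 without control replicate 1 (7.78%, against 9.77% of all genes), 19 without control replicate 2 (10.6% against 11.7%), 16 without KO replicate 1 (8.89% against 11.6%) and 50 without KO replicate 2 (27.8% against 22.5%). Falls numbered 7 without control replicate 1 (3.89% against 8.63%), 9 without control replicate 2 (5.00% against 8.60%), 13 without KO replicate 1 (7.22% against 12.2%) and 15 without KO replicate 2 (8.33% against 14.5%). The share that fell was below that of all genes each time. Of the 44 called members, 11 rises and 7 falls stayed called without any 1 library. Against the mean of the controls, the median member stood at 0.136 in KO replicate 1 and 0.050 in KO replicate 2, and the median gene at 0.055 and 0.006.

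Level moved with the change in D. simulans. Members were listed at lower values than the table as a whole, with a median log2 value of 2.89 against 3.39 over all genes, and 44.4% of them lay in the lowest of 3 equal level groups. In that group the median log2 fold change was 0.13 for 80 members and 0.09 for all genes, in the middle group 0.10 for 54 members and 0.04, and in the highest 0.02 for 46 members and -0.03. Falls made up 6.25% of members in the lowest group, against 6.58% of all genes there. They made up 7.41% in the middle group, against 12.5%, and 10.9% in the highest, against 23.6%. Rises made up 11.2%, 22.2% and 19.6% of members from the lowest to the highest group, against 14.4%, 19.5% and 16.5% of all genes. Members in D. melanogaster were also listed low (median 2.77 against 3.23), and there the median of members lay between -0.03 and -0.02 and that of all genes at -0.01 in each level group.

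**Figure D5:**
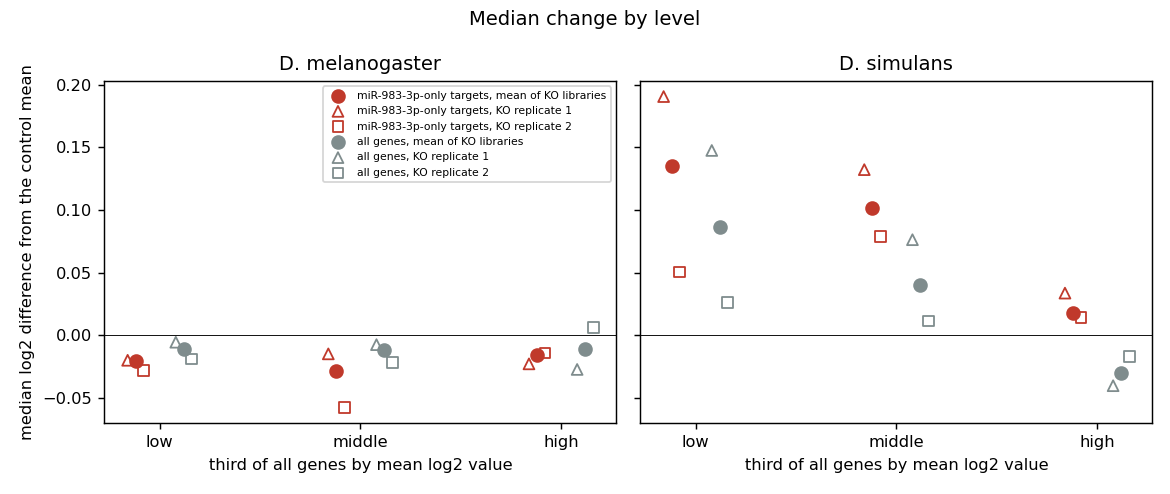
Median log2 difference from the control mean (vertical axis) for miR-983-3p-only targets and all genes in 3 equal groups of all genes by mean log2 value. Filled circles use the mean of the KO libraries, triangles KO replicate 1 and squares KO replicate 2. In D. simulans members lie above all genes in each group, with 0.13 against 0.09, 0.10 against 0.04 and 0.02 against -0.03, while in D. melanogaster the circles of members lie below those of all genes.

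Predicted targets of the 5p arm gave a near comparison. Genes predicted for both arms, with miR-983-3p by TargetScan and miR-983-5p by either program, numbered 90 in D. melanogaster and 37 in D. simulans. Their median log2 fold changes were -0.001 and 0.172, against -0.023 and 0.096 for miR-983-3p-only targets. Genes predicted for miR-983-5p by both programs and not for miR-983-3p numbered 66 and 55, with medians of 0.003 and 0.093. In D. simulans, falls made up 7.78% of miR-983-3p-only targets, 5.41% of targets of both arms (2 genes) and 3.64% of the 5p targets (2 genes). Falls over all genes made up 14.2%. Rises made up 16.7%, 32.4% (12 genes) and 18.2% (10 genes) of these sets in the same order, against 16.8% of all genes. The sets also differed in level and in how they were predicted. In D. simulans the median log2 value was 2.42 for targets of both arms and 2.61 for the 5p targets, against 2.89 for miR-983-3p-only targets. In D. melanogaster these were 2.42, 2.75 and 2.77. Sites of miR-983-3p were predicted by TargetScan alone, while the 5p set needed both programs. These differences between target sets were not tested.

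Some members share their values with another gene. In D. melanogaster 8 members have the same value in all 4 libraries as another listed gene: lmgA and lmgB with each other, and Tfb5, Tim9b, Pmi, mus312, CG34315 and CG8026 with genes outside the list. The overlapping members slmo and CG34179 both stood at -0.11. None of the 5 called members is among them (0 genes), and counts over members treat such pairs as separate genes.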

How the data were processed

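RNA-seq libraries of testes (8; 2 per genotype and species) were used. The authors deposited log2 expression values, with TopHat named in the submitters' processing notes; the sources used here do not give build, counter, scaling or pseudocount. Target and DESeq2 columns are the authors', per the file headers. Raw read counts and RPM of small RNA, deposited by the authors, have 0 entries named miR-983, so the planned miR-983-3p levels were not given. No column was left unmapped (0).

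Each species' whole table was fitted with limma 3.58.1 (R 4.3.3), empirical Bayes with trend, two-sided, KO against control, Benjamini-Hochberg threshold 0.05, no filter or added pseudocount, and the fit was tested on simulated data. P-values measure the spread between 2 libraries a genotype. Members and lists were chosen with earlier results of these data known. D. melanogaster genes were named if called, among the 8 largest changes per direction with groups apart and a mean log2 value of at least 2 in 1 genotype, among the 8 highest levels, or among the 2 smallest p of a role class; in D. simulans, the 2 largest changes per direction. Acp95EF, AGO1, Akt, bru1, comr, gw, Khc, mia, Mst77F and nht were named after their values were seen. So were MtnA, nudE, Obp44a, Obp99a, ProtB, Rab11, RpL9, RpL24, twin, upd1, yki and genes sharing reads. Alternatives were scaling, pseudocount, filter, variance trend, replicate block, wider membership and leaving out each library. Genes were not matched between species.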

Additional observations from a re-analysis of the deposited data

Results flagged for a closer look

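Relative to the median of all genes, the median miR-983-3p-only target moved down in both KO libraries of D. melanogaster and up in both of D. simulans, each against the control mean of its species. The shifts were -0.00507 in KO replicate 1 and -0.0239 in KO replicate 2 of D. melanogaster, and 0.0816 in KO replicate 1 and 0.0449 in KO replicate 2 of D. simulans. Opposite directions in the 2 species drew attention to it; the difference between species was not tested, and the members are different genes. In D. melanogaster the median member differed by 0.048 between the 2 control libraries, and the median gene by 0.008, which is more than either shift there.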

How the results depend on the processing

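In D. melanogaster the 2 rises became 5 and the 3 falls 8 with a replicate block (1.92% and 3.08%, against 2.91% and 3.96% of all genes), and the rises became 1 without a variance trend. The labels do not state whether libraries with the same replicate number were handled together. Correlations of same-numbered deviations were 0.147 in D. melanogaster and 0.0574 in D. simulans. With a library left out, the rises ranged from 1 to 3, the falls from 2 to 5 and the median log2 fold change from -0.051 to 0.0061. In D. simulans the rises then ranged from 14 to 50, the falls from 7 to 15 and the median from 0.0505 to 0.136, and a replicate block gave 30 rises and 16 falls. The cause of these differences was not tested. Median centring, cyclic loess, an added pseudocount of 1, a filter at a mean log2 value of 2 and all miR-983-3p targets as members kept each of these counts within 1.5 times and the sign of both medians. CG9391 lost its call without a variance trend (limma adjusted p = 0.086), CG14811 after cyclic loess (0.0529). Near 0, signs turned in GstS1 (0.0053 after cyclic loess; -0.0957 to 0.065 with a library left out), CG14718 (-0.0083 to 0.0662), CG14995 (-0.0465 to 0.0602) and Hsc70-2 (-0.069 to 0.00061). The block brought 8 uncalled named genes past the threshold: Mcm10, Pmvk, La, CG31460, CG42240, CG32485, CG10344 and CG33125. Alternatives for miR-983-3p levels were not run, having no value. A lone library was assumed to vary like the other genotype's. Depth is unknown, so counting error could not be set apart.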
